A study of Mus musculus with 8 samples.

Results

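The Gadd45 genes (growth arrest and DNA damage inducible) encode 3 small nuclear proteins, Gadd45a, Gadd45b and Gadd45g. All probe sets paired with exactly 1 of these symbols in the platform annotation were taken, which gave 4 of the 12422 probe sets on the array (controls left out): 1 probe set for Gadd45a (102292_at), 1 for Gadd45g (101979_at) and 2 for Gadd45b. The brighter Gadd45b set, 102779_at, is called the first and 161666_f_at the second. All 4 passed the filter on dim probe sets, a mean above the 40th percentile of the array. The samples were visual cortex of wild-type C57Bl6 mice killed at postnatal day 24, 4 days after 1 eye was removed at postnatal day 20. The deprived group (4 arrays) was the hemisphere contralateral to the removed eye and the non-deprived group (4 arrays) the ipsilateral hemisphere, so both groups came from operated mice and no unoperated cortex was used here. Arrays were numbered 1 to 4 in each group. The design text speaks of pooled samples while the protocol names 4 mice, so an array may hold 1 animal or a pool. All p-values rest on differences among these 4 arrays a group, and that variation may be partly technical.

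Gadd45 proteins have no known enzymatic activity and act by binding others. They activate the kinase Map3k4 upstream of the p38 and JNK kinases, bind the replication clamp Pcna and the cell cycle inhibitor Cdkn1a, and hinder the kinase Cdk1. Gadd45a is a classical target of p53 after DNA damage. Gadd45b, cloned from myeloid cells as MyD118, is induced by synaptic activity in neurons, and in the mouse hippocampus it has been tied to loss of DNA methylation at promoters of the growth factor genes Bdnf and Fgf1. Gadd45g, also named CR6, is induced by cytokines and takes part in differentiation.

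The stretches just before the 3 start sites are shown to set out how the genes differ in common promoter elements. Sites elsewhere in or around the genes were not searched, and no p53 motif was among those searched. Each is the 250 bases before the gene's start in RefSeq (GRCm38.p6), on the strand of the gene: chr6:67037408-67037657, minus strand, for Gadd45a; chr10:80929841-80930090, plus strand, for Gadd45b; chr13:51846425-51846674, plus strand, for Gadd45g. Capitals mark matches to the motifs named after the sequences.
Gadd45a: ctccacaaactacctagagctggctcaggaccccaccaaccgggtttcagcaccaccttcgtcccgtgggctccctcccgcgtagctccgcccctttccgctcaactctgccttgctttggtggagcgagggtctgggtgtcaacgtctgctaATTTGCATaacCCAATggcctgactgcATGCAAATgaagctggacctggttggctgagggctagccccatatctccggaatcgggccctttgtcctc
Gadd45b: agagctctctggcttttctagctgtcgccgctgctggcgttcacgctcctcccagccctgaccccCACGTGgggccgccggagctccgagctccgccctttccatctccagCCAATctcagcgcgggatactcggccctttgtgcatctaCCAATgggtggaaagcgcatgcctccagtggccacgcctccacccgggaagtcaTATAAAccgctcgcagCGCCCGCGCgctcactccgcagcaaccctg
Gadd45g: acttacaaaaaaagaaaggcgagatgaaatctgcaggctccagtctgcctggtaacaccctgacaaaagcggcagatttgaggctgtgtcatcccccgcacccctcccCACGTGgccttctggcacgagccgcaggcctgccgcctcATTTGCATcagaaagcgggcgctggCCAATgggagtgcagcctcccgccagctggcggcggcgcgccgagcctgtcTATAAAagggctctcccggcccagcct

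7 motifs were searched on both strands, and no 2 matches overlapped. The octamer ATGCAAAT, the binding motif of POU factors, occurred 2 times in Gadd45a, starting 97 and 70 bases before the start, and 1 time in Gadd45g, and it is present before 1.81% of all genes in the same table. The E-box CACGTG (6.86% of genes) and the TATA box TATAAA (14.3%) were found before Gadd45b and Gadd45g, and their letters were not in the window of Gadd45a. All 3 windows held the CCAAT box CCAAT (37.5%), with 2 copies in Gadd45b. A match to the Egr motif GCGNGGGCG (5.33%), in which N is any base, was found only before Gadd45b, on the opposite strand and starting 30 bases before the start. The letters of the cyclic AMP response element TGACGTCA (1.77%) and the AP-1 site TGANTCA (7.82%) were in none of the 3 windows. These matches describe sequence and were not tested against binding.

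Gadd45b was lower in deprived cortex on both of its probe sets, with folds of 0.575 and 0.505. This held by exact permutation of the arrays, which ignores pairs, but not after adjustment over the array. Exact sign flips within the 4 same-numbered pairs gave p = 0.125 for both, the smallest possible. On the first Gadd45b probe set the 4 non-deprived arrays had signals of 311.7, 319.0, 323.6 and 349.7 in the order of their numbers, and the 4 deprived arrays 217.8, 113.3, 149.9 and 283.0. The highest deprived value lay below the lowest non-deprived one. The means were 326 ± 16.5 and 191 ± 75.1 (SD, n = 4 each). The log2 difference of signal plus a pseudocount of 15.2, deprived minus non-deprived here and throughout, was -0.80 ± 0.25 (SE), with a 95% interval of -1.34 to -0.26. On this scale, which understates the change of dim genes, that is a fold of 0.575, with an interval of 0.396 to 0.834.

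The second Gadd45b probe set was designed from a different cDNA. The suffix f in its name marks probes that can also match related transcripts, so its signal may not come from Gadd45b alone. Its non-deprived signals were 240.8, 345.2, 206.1 and 259.3, and its deprived signals 163.3, 58.8, 128.1 and 176.8. Again the groups did not overlap, and the means were 263 ± 59.2 and 132 ± 52.8 (SD, n = 4). The difference was -0.99 ± 0.30 (SE) on the log2 scale, interval -1.64 to -0.33, or a fold of 0.505. The 4 deprived arrays stood in the same order on both probe sets, number 2 lowest, then 3, 1 and 4. The non-deprived arrays did not: number 4 was highest on the first and number 2 on the second. The order of the deprived arrays was also that of 2 ratios of RNA integrity, given below.

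Gadd45g was also lower in the deprived hemisphere, by a smaller estimate than Gadd45b, though the tests given below did not resolve that inequality. Its non-deprived signals were 353.1, 387.7, 406.6 and 552.3, and its deprived signals 320.6, 267.3, 337.6 and 346.3. The groups were separate, but the gap between them was narrow, 346.3 against 353.1. The means were 425 ± 87.7 and 318 ± 35.4 (SD, n = 4), with a log2 difference of -0.39 ± 0.18 (SE), an interval of -0.77 to -0.0031 and a fold of 0.764.

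Gadd45a showed no difference that these arrays could resolve. Its non-deprived signals were 426.8, 327.1, 292.1 and 268.5, and its deprived signals 338.4, 336.4, 349.8 and 315.4. All 4 deprived values lay within the range of the non-deprived ones. The means were 329 ± 69.8 and 335 ± 14.4 (SD, n = 4), and the log2 difference was 0.05 ± 0.17 (SE). Its interval of -0.33 to 0.42, in folds 0.795 to 1.34, leaves room for a moderate difference in either direction.

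**Figure D1:**
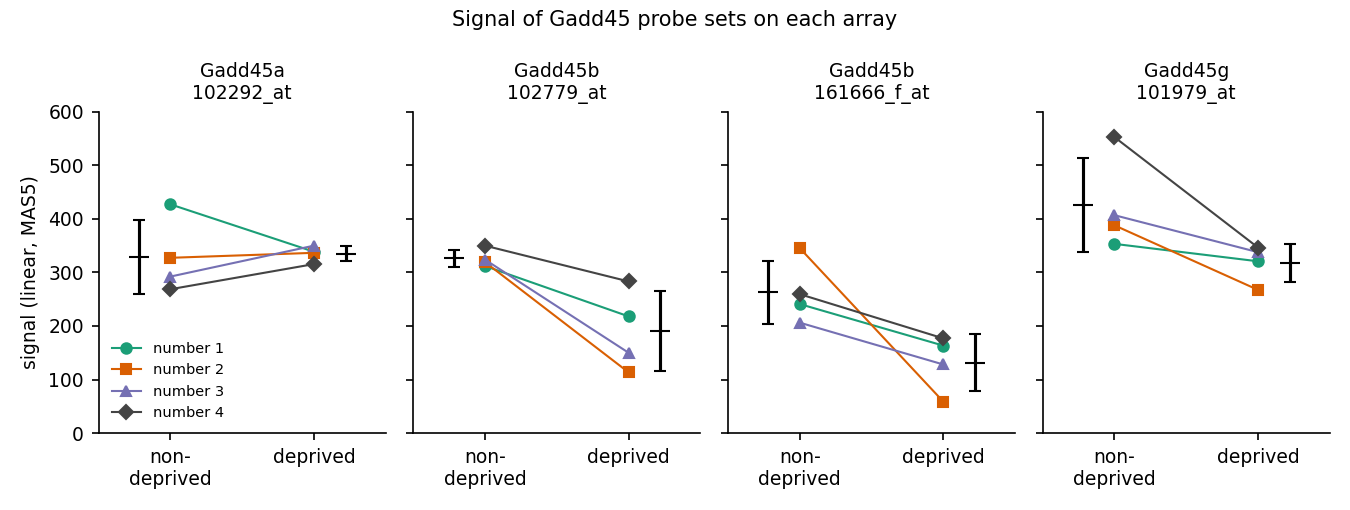
Linear signal (y axis) of the 4 Gadd45 probe sets on the 4 non-deprived and 4 deprived arrays, with lines joining same-numbered arrays and black marks for the mean ± SD of each group. Both Gadd45b probe sets and Gadd45g have every deprived point below every non-deprived point, whereas the deprived points of Gadd45a, 315.4 to 349.8, sit inside the non-deprived range.

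No member passed a test that accounts for the size of the array. In limma with Benjamini-Hochberg adjustment over 7453 probe sets, the adjusted p was 0.995 for each of the 4. By that rule 0 probe sets were called lower and 0 higher over the whole array (0% in each direction), and 199 had an unadjusted p under 0.05, of which 91 were lower (1.22%) and 108 higher (1.45%). With the replicate number as a block that count was 524. The balance of directions depended on the scaling: 45.7% of the 199 were lower, against 61.2% of 196 with quantile scaling and 62.3% of 191 with cyclic loess scaling. The unadjusted limma p, ignoring pairs, was 0.00711 and 0.0066 for the Gadd45b probe sets, 0.0484 for Gadd45g and 0.793 for Gadd45a. Ordered by that p, the Gadd45b probe sets came at positions 34 and 28 of 7453, Gadd45g at 194 and Gadd45a at 5861. Blocked by replicate number, the unadjusted limma p was 0.00363 and 0.00891 for Gadd45b, 0.026 for Gadd45g and 0.772 for Gadd45a. Permuting the 8 arrays between the groups (exact test, two-sided, 70 assignments) gave p = 0.0286, unadjusted and the smallest possible, for both Gadd45b probe sets and for Gadd45g, and p = 0.8286 for Gadd45a.

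Groups that do not overlap, with deprived lower, occurred in 60 of the 7453 probe sets (0.805%), and 3 of the 4 Gadd45 probe sets were among them. The reverse, deprived entirely higher, occurred in 1.23%, with no Gadd45 probe set. Since 2 of these 3 measure 1 gene on the same arrays, they are not independent. Of 934 genes with 2 or more probe sets above the filter, 1 had every probe set entirely lower in deprived cortex, and that gene was Gadd45b. This count was made after the values had been seen.

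Within same-numbered pairs the size of the Gadd45b difference varied more than its direction. On the first probe set the deprived signal was 69.9% of the non-deprived one in pair 1, 35.5% in pair 2, 46.3% in pair 3 and 80.9% in pair 4. On the second it was 67.8%, 17.0%, 62.2% and 68.2%. Pair 2 thus had the deepest difference on both. For Gadd45g the share ran from 62.7% in pair 4 to 90.8% in pair 1, and pair 4, the shallowest for Gadd45b, was the deepest for Gadd45g. These 3 probe sets were lower in 4 of 4 pairs, as were 516 of 7453 probe sets (6.92%), and the exact sign-flip p was 0.125, the smallest that 16 patterns allow. Gadd45a was lower in 1 of 4 pairs, at 79.3% in pair 1, and at 103%, 120% and 117% in the others.

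**Figure D2:**
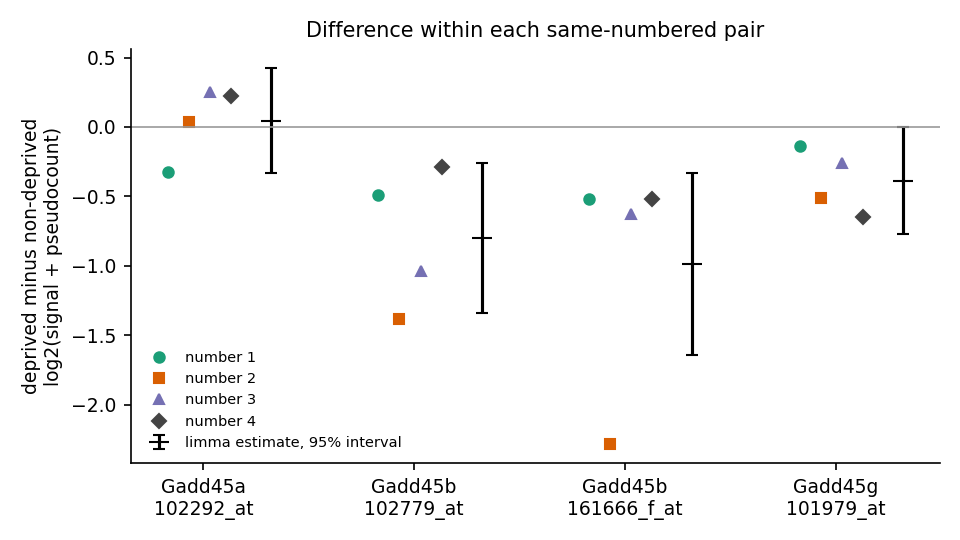
Log2 difference of signal plus pseudocount, deprived minus non-deprived (y axis), for each same-numbered pair of arrays and each Gadd45 probe set, with the limma estimate and its 95% interval in black. The pairs of Gadd45b run from -0.29 to -1.38 on the first probe set and from -0.52 to -2.28 on the second, those of Gadd45g from -0.13 to -0.65, and those of Gadd45a fall on both sides of 0.

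Leaving out pair 2 brought the Gadd45b difference to -0.61 on the first probe set and -0.55 on the second. Leaving out only deprived array 2 gave -0.60 and -0.69, and leaving out deprived array 4, the least reduced, gave -1.001 and -1.15. The difference of Gadd45g was -0.26 without non-deprived array 4, its highest value. No array left out turned the sign of these 3 probe sets. For Gadd45a the sign did turn, with -0.04 without non-deprived array 4 and 0.17 without non-deprived array 1.

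Of 3 measures of RNA integrity and background, 1, the background, separated the groups. The 2 integrity ratios went opposite ways, and neither passed exact permutation of the arrays, which ignores pairs. The actin ratio was higher on the deprived side in 3 of 4 same-numbered pairs, and the Gapdh ratio in 0 of 4. Control probe sets at both ends of the actin transcript gave a ratio of 3′ to 5′ signal of 1.39 ± 0.179 for the non-deprived and 1.64 ± 0.239 for the deprived side (SD, n = 4, exact permutation p = 0.171), and those of Gapdh 0.898 ± 0.0543 and 0.842 ± 0.0345 (exact permutation p = 0.143). In a fit with the actin ratio added, the Gadd45b differences were -0.45 ± 0.24 on the first and -0.69 ± 0.33 on the second probe set (SE), and that of Gadd45g was -0.21 ± 0.19. The unadjusted limma p of these 3 probe sets was then 0.0834, 0.0618 and 0.304. With the Gapdh ratio added the differences were -0.54 ± 0.29, -0.49 ± 0.28 and -0.34 ± 0.23, with an unadjusted limma p of 0.0882, 0.115 and 0.161, so none of the 3 kept an unadjusted p under 0.05 with either ratio. The 10th percentile of the signals, a measure of background, stood at 13.4 ± 0.678 on the non-deprived and 17.2 ± 2.70 on the deprived side (exact permutation p = 0.0286), so this background was higher on the side where Gadd45b was lower. Among the deprived arrays both integrity ratios stood in the order of the Gadd45b signals. From number 2 through 3 and 1 to 4 the actin ratio fell, at 1.91, 1.71, 1.60 and 1.33. Over the same arrays the Gapdh ratio rose, at 0.801, 0.831, 0.856 and 0.882. Among the non-deprived arrays the second Gadd45b probe set stood in the order of the Gapdh ratio, and the first in the order of neither ratio. The part of these measures in the Gadd45 values was not tested.

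Whether the members differ from each other in their response was tested on the log2 difference between 2 members within each array, taking the brighter Gadd45b probe set. Gadd45b minus Gadd45a was 0.01 ± 0.338 on the non-deprived and -0.84 ± 0.578 on the deprived side (SD, n = 4), a difference between groups of -0.85 with an exact two-sided permutation p of 0.0571. Every pair showed that direction, with values from -0.17 to -1.42, and without deprived array 4 it was -1.08 with an exact permutation p of 0.0286. With any other single array left out the exact permutation p ran between 0.0571 and 0.1143. Flipping signs within the 4 pairs (exact test) gave p = 0.125, the smallest possible. For Gadd45b minus Gadd45g the difference between groups was -0.41 (exact permutation p = 0.2) and for Gadd45g minus Gadd45a -0.43 (exact permutation p = 0.171). After Benjamini-Hochberg adjustment of the exact permutation p over the 3 contrasts the values were 0.171, 0.2 and 0.2. An unequal response of the 3 genes was therefore not resolved with 4 arrays a group, although Gadd45b separated the groups and Gadd45a did not.

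The spread within groups also differed between members. On the first probe set the SD of Gadd45b was 5.07% of the mean in non-deprived and 39.3% in deprived arrays, and of Gadd45a 21.2% and 4.28%. On the second it was 22.5% and 40.1%, so the tight non-deprived values were seen on 1 of the 2 Gadd45b probe sets. Among the non-deprived arrays Gadd45a and Gadd45g had opposite orders: number 1 was highest for Gadd45a and lowest for Gadd45g, and number 4 the reverse, with 2 and 3 between them in both. Across the 8 arrays the deviations from the group means correlated at 0.81 between the Gadd45b probe sets, at 0.50 between the first of them and Gadd45g, at -0.24 between the first Gadd45b probe set and Gadd45a, at -0.04 between the second and Gadd45a, and at -0.71 between Gadd45g and Gadd45a. These values describe 8 arrays, and the genes share each array's RNA and scaling.

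**Figure D3:**
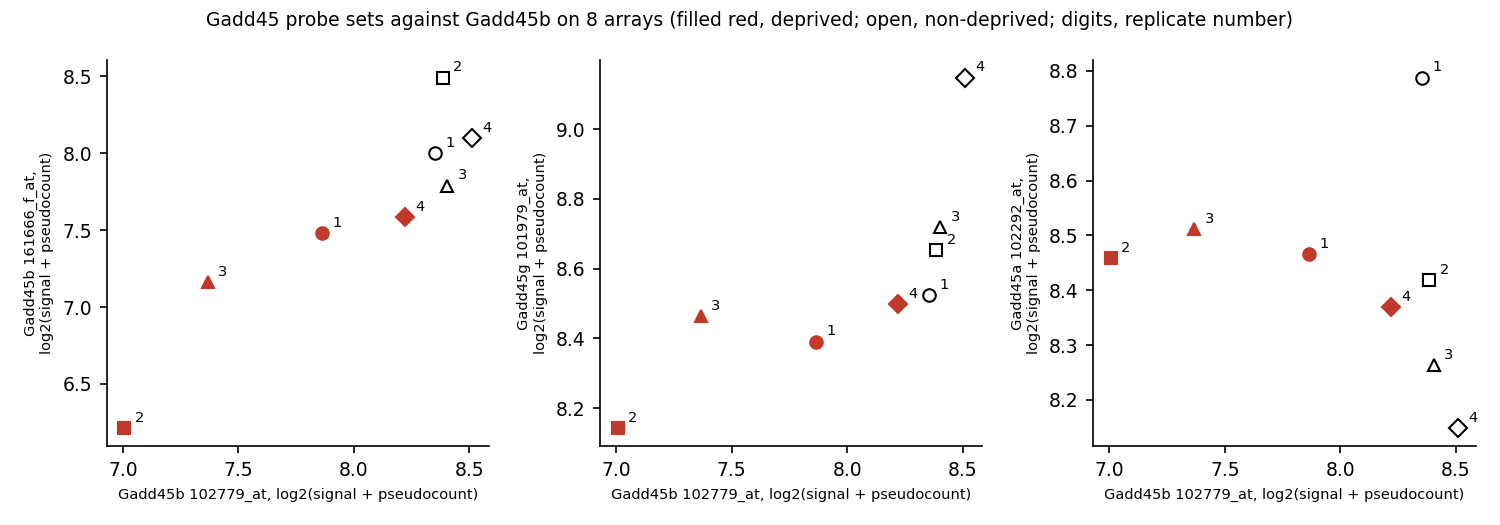
Log2(signal + pseudocount) of the second Gadd45b probe set, Gadd45g and Gadd45a (y axes) against the first Gadd45b probe set (x axes) on the 8 arrays, deprived in filled red and non-deprived open, with the replicate number beside each point. Deprived arrays 2, 3, 1 and 4 rise in that order on both Gadd45b probe sets, and Gadd45a has its highest and its lowest value among the non-deprived arrays.

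The genes whose log2 values across the 8 arrays were most like those of a member were found among 5672 genes. For Gadd45b they were Ptcd2, a mitochondrial RNA-processing protein (r = 0.96), Sod3, the extracellular superoxide dismutase (0.95), Adra2c, an adrenergic receptor (0.94), the mitochondrial ribosomal protein gene Mrpl28 (0.94) and Mtarc2 (0.94). Adra2c averaged 558 ± 63.0 on the non-deprived and 431 ± 126 on the deprived side (SD, n = 4), and the groups of all 5 overlapped. For Gadd45g they were Abhd16a, B4galt2, Ddx54, Prkag1 and Fdft1 (0.92 to 0.94), of which the RNA helicase gene Ddx54, at 453 ± 51.2 and 376 ± 24.4, had groups that did not overlap. For Gadd45a they were the kinase gene Nek7 (0.97), Jade1, Bcl2l11, Tmem123 and Tpbg (0.92 to 0.94). None of these 15 genes belongs to the list of activity-induced genes described next.

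Genes that neurons induce with activity were taken as 1 list, picked with earlier results of these data known, so its direction is not independent evidence. Of its 34 genes 26 were measured, and 23 of these lay below 0 with a median log2 difference of -0.49, against 46.1% below 0 and a median of 0.02 over all 5675 genes tested. The AP-1 gene Fos averaged 2818 ± 665 on the non-deprived and 1495 ± 165 on the deprived side, its partner Junb 1465 ± 146 and 913 ± 145, and the phosphatase gene Dusp6 2614 ± 250 and 1775 ± 203 (SD, n = 4). Their log2 differences were -0.89, -0.68 and -0.56. The estimate of the first Gadd45b probe set, -0.80, lay at the low end of this list. That of the second, -0.99, lay below Fos, the lowest gene measured in the list, and that of Gadd45g lay inside the list. In this list 10 of 26 genes had groups that did not overlap, all lower, against 0.828% of all genes, and 0 passed limma's adjusted threshold, with 16 lower and 0 higher at an unadjusted p under 0.05. Of all 5675 genes tested, 71 (1.25%) were lower and 75 (1.32%) higher by that unadjusted rule. Bdnf had 2016 ± 540 and 1112 ± 346 with overlapping groups (log2 difference -0.86 ± 0.23, SE). Fgf1, the other growth factor gene tied to Gadd45b, had 351 ± 62.3 and 442 ± 84.6, a log2 difference of 0.31 ± 0.19 (SE).

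The stress and damage genes with which Gadd45 genes are often grouped showed no common direction. Of 30 growth arrest and DNA damage genes 18 were measured, 7 below and 11 above 0, with a median of 0.14. Of these, 0 passed limma's adjusted threshold in either direction, and 2 (Cdkn1a and Btg2) were lower and 0 higher at an unadjusted p under 0.05, against 1.25% and 1.32% of all genes. Cdkn1a, the cell cycle inhibitor that binds Gadd45 proteins, averaged 404 ± 94.3 on the non-deprived and 258 ± 58.9 on the deprived side (SD, n = 4, log2 difference -0.61 ± 0.22, SE) and was lower in 4 of 4 pairs, with overlapping groups. Btg2, an antiproliferative gene that neurons also induce with activity, had 2267 ± 424 and 1624 ± 337. Rrm2b, a ribonucleotide reductase subunit induced by p53, had 367 ± 74.0 and 507 ± 154. Ddit3, another growth arrest and DNA damage gene, had 324 ± 92.9 and 318 ± 92.3, and Ppp1r15a, once named Gadd34, 295 ± 27.2 and 267 ± 95.1.

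Of 27 factors and kinases placed upstream of Gadd45 genes 16 were measured, 8 on each side of 0, with a median of -0.05, and 0 passed limma's adjusted threshold. At an unadjusted p under 0.05 there was 1, Egr1, lower, against 1.25% of all genes. The zinc-finger factor Egr1 had 6703 ± 1999 and 4018 ± 775 (SD, n = 4), with groups that did not overlap. Cebpd, a stress-induced leucine-zipper factor, had 295 ± 19.2 and 236 ± 33.3, and the coactivator Crebbp 938 ± 153 and 1268 ± 305, each with overlapping groups. Brca1, Myc, Creb1 and Smad3 lay below the filter.

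The lists of binding partners and of kinases downstream had medians near 0. Of the p38 and JNK route 20 of 25 genes were measured, 11 below and 9 above 0, with a median of -0.01. Map3k4, the kinase that Gadd45 proteins activate, had 302 ± 36.5 and 328 ± 51.7 (SD, n = 4, log2 difference 0.11 ± 0.17, SE), and the p38 gene Mapk14 had 1952 ± 382 and 1976 ± 255 (0.03 ± 0.16). Of 16 cell cycle partners 10 were measured, 4 below 0, with a median of 0.03. Pcna had 666 ± 80.0 and 542 ± 49.3 and was lower in 4 of 4 pairs, with overlapping groups (log2 difference -0.29 ± 0.15, SE). Cdk1 lay below the filter. In both lists 0 genes passed limma's adjusted threshold in either direction, and 0 had an unadjusted p under 0.05.

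Of 37 genes of DNA methylation, demethylation and excision repair 20 were measured, 8 below and 12 above 0, with a median of 0.11. Of these, 0 passed limma's adjusted threshold, and 1 was lower and 2 higher at an unadjusted p under 0.05, against 1.25% and 1.32% of all genes. Mbd3, a subunit of the NuRD repressor complex, averaged 1840 ± 96.4 on the non-deprived and 1430 ± 307 on the deprived side (SD, n = 4), with deprived entirely lower. Apobec2, of the cytidine deaminase family, had 214 ± 54.2 and 326 ± 13.1, with deprived entirely higher. Over all genes 0.828% were entirely lower and 1.20% entirely higher. The repair scaffold Xrcc1 had 180 ± 27.2 and 259 ± 55.3, and the DNA methyltransferase gene Dnmt3a, dim at 99.0 ± 27.7 and 157 ± 82.6, had a log2 difference of 0.47 ± 0.38 (SE). The excision repair nuclease gene Ercc5 had 183 ± 23.8 and 188 ± 39.0. Tet1 lay below the filter, and Tdg and Trp53 were not analysed here.

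**Figure D4:**
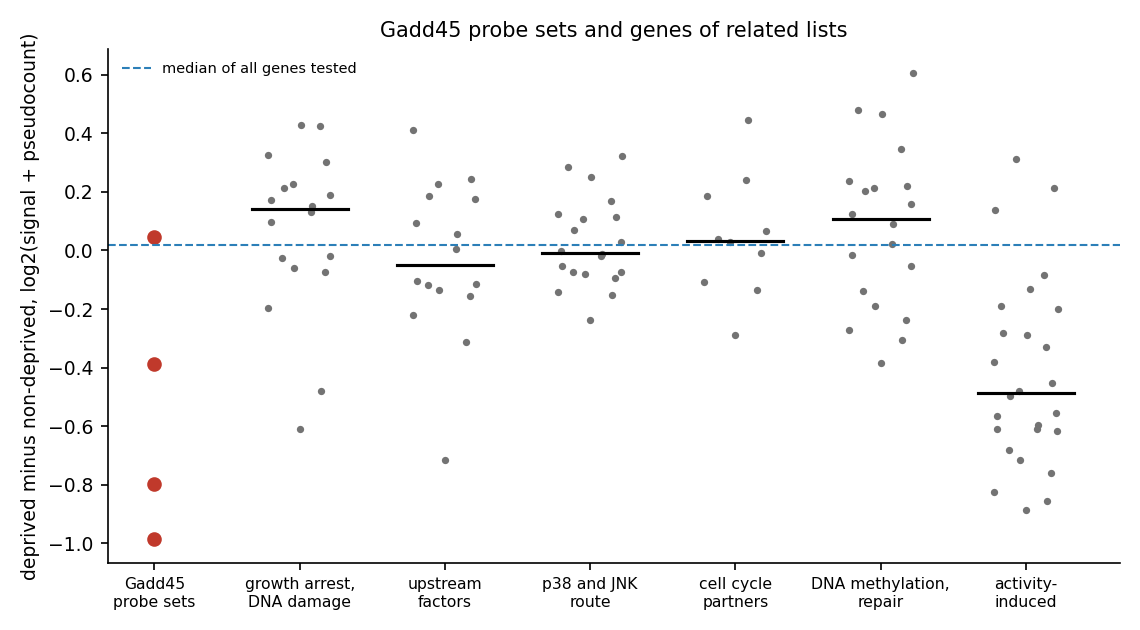
Log2 difference of signal plus pseudocount, deprived minus non-deprived (y axis), for the 4 Gadd45 probe sets in red and for each measured gene of 6 related lists in grey, with the list median as a black bar and the median of all genes tested as a dashed line. The medians of 5 lists lie between -0.05 and 0.14, and that of the activity-induced genes at -0.49.

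All 8 arrays had median signals of 182 to 209, and correlations between their log2 values ran from 0.948 to 0.975. The median signal was higher on the deprived side in 4 of 4 same-numbered pairs. It averaged 189 ± 6.38 on the non-deprived and 200 ± 7.88 on the deprived side (SD, n = 4, exact permutation p = 0.114). All 5 neuronal markers and all 4 excitatory neuron markers with a probe set lay above the filter, and all 3 choroid plexus markers lay below it. For all 12 marker lists the range of the summed signal over arrays overlapped between groups, although such a sum follows its brightest marker. For astrocytes (6 of 7 markers with a probe set) it was 14750 to 23590 in non-deprived and 15290 to 23550 in deprived arrays, and for thalamus (5 of 6) 2237 to 2603 and 2331 to 2889. Some markers, picked here after their values were seen, were lower on the side where Gadd45b was lower, and others higher. Tcf7l2 and Calb2 of thalamus (log2 differences 0.32 and 0.24), Gja1 of astrocytes (0.23) and Csf1r of microglia (0.12) were lower in 0 of 4 pairs. Stmn2 of neurons (-0.15), C1qc of microglia (-0.18) and Cldn5 of endothelium (-0.30) were lower in 4 of 4. The groups of these genes overlapped. Their lists had medians of 0.11 (thalamus), 0.009 (astrocytes), 0.08 (microglia), -0.04 (neurons) and 0.09 (endothelium). In that order, 1 of 5, 3 of 6, 3 of 7, 4 of 5 and 1 of 6 measured markers lay below 0. The striatal list (3 of 6 markers with a probe set) had a median log2 difference of -0.43, with summed signals of 1332 to 2523 in non-deprived and 1098 to 1782 in deprived arrays. Its neuropeptide genes Penk (-0.43 ± 0.22, SE) and Tac1 (-0.61 ± 0.27, SE) were lower in 4 of 4 pairs, with overlapping groups. Tac1 had an unadjusted limma p of 0.043, and the dopamine receptor gene Drd2 was at 0.29 ± 0.24. The interneuron neuropeptide gene Sst was at -0.49 ± 0.27 (SE), lower in 4 of 4 pairs with overlapping groups, while the median of the 4 interneuron markers measured was -0.01. Wfs1, of the hippocampal list, was entirely lower in deprived cortex, at 997 ± 80.4 and 821 ± 91.1 (SD, n = 4), as were 0.828% of all genes. The other hippocampal marker above the filter, Zbtb20, was at 0.03 ± 0.24 (SE) with overlapping groups. The list median over these 2 markers was -0.13. The excitatory neuron markers had a median of -0.16, with 3 of 4 below 0. The part of these markers in the Gadd45 values was not tested. The array measures whole tissue, so fewer cells that express Gadd45b and less of its RNA per cell cannot be told apart.

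**Figure D5:**
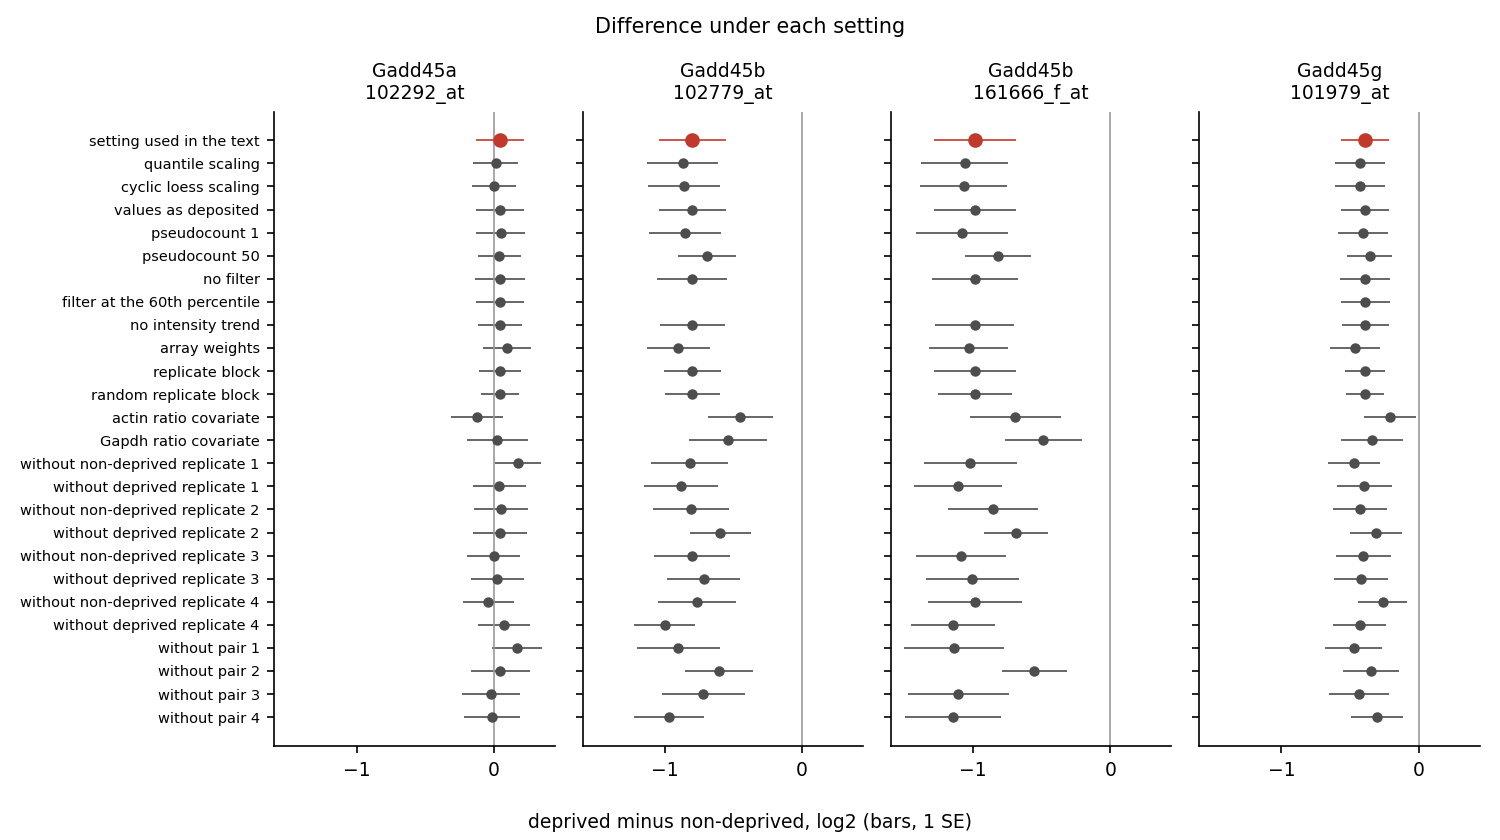
Log2 difference, deprived minus non-deprived (x axis), of the 4 Gadd45 probe sets under each setting tried, with bars of 1 SE and the setting used in the text in red. Estimates of both Gadd45b probe sets and of Gadd45g stay below 0 in every setting that kept them, from -0.45 to -1.001 for the first Gadd45b probe set, while those of Gadd45a run from -0.12 to 0.17.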

How the data were processed

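Total RNA of visual cortex was made into biotin-labelled cRNA and hybridised to 1-colour short-oligonucleotide arrays, per the labels' protocols. The authors deposited signal intensity on a linear scale, 1 value a probe set, from MAS5 according to the submitters' processing notes. Its version is not given in the sources used here. MAS5 brings all arrays to 1 trimmed mean, found here to be 500.3 in all 8 columns. The number of arrays limits the precision.

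Arrays were rescaled to 1 trimmed mean (2% off each end), 66 control probe sets were dropped, and values became log2(signal + 15.2), where 15.2 is the 10th percentile of signal. Probe sets with a mean above the 40th percentile (signal about 110) were kept, 7453 of 12422. Of all probe sets 10833 had 1 gene symbol, 396 several and 1193 none; 10817 of the single symbols were matched by Entrez identifier to current ones in RefSeq's GRCm38.p6 table, which served for names only. Promoter sequences are from RefSeq, and 3 of 3 members matched. Groups were taken from sample titles and tested two-sided by limma 3.58.1 under R 4.3.3 (lmFit, then eBayes with its trend option), adjusted p under 0.05 by Benjamini-Hochberg being the call; the fit was tested on simulated data with 200 changed probe sets. Single values were also tested by exact permutation of arrays. A gene of a list was represented by its brightest probe set. The members and lists were chosen with earlier results of these data known. Named are all members, by rule the genes of each list with the smallest p or a fixed role, of which the text gives examples, and the 5 genes most like each member; Ddit3, Ppp1r15a and Ercc5 and the genes below the filter were picked after their values were seen.

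Whether a number stands for a mouse is not in the labels. After group means were subtracted, same-numbered samples correlated at 0.158 to 0.422, all over the limit of 0.1, and others at -0.271 to 0.123. Non-deprived 3 with deprived 4, at 0.123, was thus also over that limit, which alone does not separate pairs from others. The numbers were taken as pairs, and a fit with the number as a block was run as an alternative. Other alternatives were scaling, pseudocount, filter, array weights, integrity covariates and leaving out arrays or pairs. Figures were drawn with matplotlib 3.10.9.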

Additional observations from a re-analysis of the deposited data

Results flagged for a closer look

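An outlying array, judged against the 3 others of the same group, was found for 2 of 116 sets of 4 values, and chance alone gives about 1 in 20 (5.8 here). No Gadd45 probe set was among them. For Junb the gap of deprived replicate 4 to its nearest neighbour was 0.838 of the group's range in log2 signal, and for Mtarc2, one of the genes most like Gadd45b, that of non-deprived replicate 2 was 0.862.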

How the results depend on the processing

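Under no setting did any probe set pass limma's adjusted threshold (0 in each), and the smallest adjusted p was 0.116, with the replicate block. The number with an unadjusted p under 0.05 was 199, and 524 with the replicate block, 535 with the random replicate block, 491 with no filter, 368 with array weights and 429 without deprived replicate 4. The block left the Gadd45 differences at -0.80, -0.99, -0.39 and 0.05 and changed no call, with limma adjusted p of 0.601 and 0.703 for the Gadd45b probe sets, against 0.361 and 0.419 with the random block. Both Gadd45b probe sets fell out at a filter of the 60th percentile. Leaving out arrays or pairs, the Gadd45b differences ran from -1.001 to -0.60 (first probe set) and from -1.15 to -0.55 (second), that of Gadd45g from -0.47 to -0.26 and that of Gadd45a from -0.0390 to 0.174, turning sign without non-deprived replicate 3 (-0.0006) or 4, or pair 3 (-0.0208) or 4 (-0.0116). With the actin covariate Gadd45a was -0.12, and the cause was not tested. The group difference in Gadd45b minus Gadd45a ran from -1.08 to -0.64 (exact permutation p from 0.0286, without deprived replicate 4, the 1 setting past the threshold, to 0.2), and that in Gadd45b minus Gadd45g from -0.67 to -0.26. With the second Gadd45b probe set, tried after the data had been seen, they were -1.03 and -0.60.

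List medians moved by more than the spread between arrays as follows, with causes not tested. Growth arrest and DNA damage genes were at 0.0111 with the actin ratio (0.141 without it). Upstream factors, at -0.0501, were at 0.0754 with no filter and 0.0307 at the 60th percentile, where more and fewer genes were tested, and at 0.0264 with the Gapdh ratio. DNA methylation and repair genes, at 0.109, were at 0.0473 and 0.0439 with quantile and cyclic loess scaling, -0.0163 at the 60th percentile and 0.0536 with the Gapdh ratio. Leaving out arrays or pairs gave -0.102 to 0.0219 for upstream factors, -0.0306 to 0.0484 for the p38 and JNK route, and 0.0343 to 0.126 for DNA methylation and repair. The activity-induced list stayed between -0.53 and -0.44 under all settings run.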
